A study of Mus musculus with 8 samples.

Results

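Semaphorins are secreted or membrane-bound guidance proteins, plexins are their main receptors and neuropilins are co-receptors without a signalling domain of their own. The 10 genes described here, of 55357 listed, are the 4 semaphorin genes Sema4a, Sema4b, Sema4d and Sema6d, the 4 plexin genes Plxna1, Plxnb2, Plxnc1 and Plxnd1, and both neuropilin genes, Nrp1 and Nrp2. They were selected on a named list of myeloid members of these families with the values of these same libraries already known, so their response to sphingosine is given as a description, with no p-value, and the counts of them that passed a threshold are stated once and support nothing. In sphingosine-treated macrophages Nrp1, Plxna1, Plxnc1 and Nrp2 were lower than in control macrophages, as was Plxnb2 by little. Plxnd1 was higher, and the control and treated ranges of the 4 semaphorin genes overlapped. Among family genes outside this list, the class A plexins Plxna2, Plxna3 and Plxna4 and the semaphorin gene Sema4c fell. Plxna2 and Sema4c each no longer passed the test in 5 of 8 fits that left out a library. The lists of related genes were likewise chosen with earlier results of these data known, and nothing is read from counts within them.

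A plexin carries a semaphorin-binding domain outside the cell and, inside it, a GTPase-activating domain that acts on small GTPases of the Ras and Rap families and so alters integrin adhesion and the actin skeleton. Class 3 semaphorins, which are secreted, mostly need a neuropilin to reach class A plexins, whereas membrane-bound semaphorins of classes 4 and 6 bind plexins directly. Neuropilins also bind forms of vascular endothelial growth factor. In macrophages and dendritic cells the system is known for its part in migration, cell contact and the shaping of T cell responses, and Plexin-A1 is known to work there with TREM2 and its adaptor DAP12, the product of Tyrobp.

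Bone marrow cells of wild-type C57BL/6J mice were grown with M-CSF into bone marrow-derived macrophages (BMDM). Cells of 4 libraries received 2 μM sphingosine d18:1, abbreviated So(d18:1), for 6 h, and those of 4 control libraries received the methanol vehicle for the same 6 h. The comparison asks which genes So(d18:1), a sphingoid base, alters in macrophages. The labels name no further stimulus, whereas the study's text speaks of inflammatory stimulation of both groups, so whether these macrophages were stimulated is uncertain. The study calls its samples biologically independent, but neither source ties a library to a mouse or culture, so p-values measure the spread between these libraries, which may be technical.

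Total counts lay between 20819860 and 25114354 in the control libraries and between 17748397 and 26088609 in the So(d18:1) libraries, a difference with p = 0.314 by a two-sided exact permutation test. Of 14514 genes with enough counts to be tested, 8.94% had an adjusted p under 0.05 by edgeR's quasi-likelihood test with Benjamini-Hochberg adjustment, 3.87% being higher and 5.07% lower with So(d18:1). In 15.0% of the tested genes the groups did not overlap. The median log2 fold change over all tested genes was 0.0036 and the median size of the change was 0.11. Levels are given as CPM, the count of a gene in 1e+06 counts of its library after TMM scaling. For single tested genes the library total left out genes removed by the filter, and for marker sums it held all genes. The 9 macrophage markers summed to between 30944 and 33316 CPM in control and between 26842 and 31836 CPM with So(d18:1), and all 9 passed the filter. Most of this sum came from Lyz2, and of the 9 markers Mertk (-0.38 on the log2 scale) and Cd68 (-0.22) fell and Itgam (0.18) rose. The 8 neutrophil markers summed to between 1104 and 1511 CPM in control BMDM and between 858 and 964 CPM with So(d18:1). All 8 had negative log2 fold changes, with a median of -0.45, and the groups did not overlap for 6 of them. By adjusted p, 4 of the 8 fell, where 5.07% of all tested genes fell. Markers of T cells summed to at most 0.547 CPM, of dendritic cells to at most 6.55 CPM, of fibroblasts to at most 9.14 CPM, of B cells to at most 19.4 CPM and of endothelial cells to at most 24.7 CPM in any library. All 5 B cell markers had negative log2 fold changes, with a median of -0.92, and Pax5 fell, although the sum was mostly Cd79b (-0.06). No marker was at 0 in all libraries, and the part of these marker differences in the results below was not tested. In bulk RNA, fewer cells of a type and less RNA per cell cannot be told apart.

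All 10 genes passed the filter on low counts. By adjusted p, 4 of the 10 stood among the called genes, 3 of them lower (Nrp1, Nrp2 and Plxnc1) and 1 higher (Plxnd1), where 8.94% of all tested genes were called. The groups did not overlap for 6 of the 10, the same 4 genes together with Plxna1 and Plxnb2, where 15.0% of tested genes did not overlap. Nothing is read from these counts, since the genes were chosen with this comparison known. None of the 10 reached the study's own threshold of a 1.5-fold change with an unadjusted p under 0.05, which 3.89% of tested genes reached. The median log2 fold change of the 10 was -0.09, 7 being negative and 3 positive.

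The start regions of both neuropilin genes and of Plxnc1 and Plxnd1, the plexins with a window and the larger differences, are shown because the study concerns the hypoxia-inducible factor HIF-2α, whose family binds DNA at the short core ACGTG or GCGTG. Each window runs from 250 bases before to 50 bases after a RefSeq start site in the mouse build GRCm38.p6, is written along the gene's strand from 5′ to 3′, and has every HIF core on either strand in capitals. The Nrp1 window is chr8:128358823-128359122 on the plus strand, the Nrp2 window chr1:62703067-62703366 on the plus strand, the Plxnc1 window chr10:94944796-94945095 on the minus strand and the Plxnd1 window chr6:115994956-115995255 on the minus strand.
Nrp1: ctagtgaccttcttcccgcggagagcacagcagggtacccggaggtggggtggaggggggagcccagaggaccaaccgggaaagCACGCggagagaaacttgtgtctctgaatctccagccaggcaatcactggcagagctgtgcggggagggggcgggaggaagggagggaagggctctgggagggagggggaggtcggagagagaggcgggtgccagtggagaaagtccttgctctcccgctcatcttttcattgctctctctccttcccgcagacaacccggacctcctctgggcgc
Nrp2: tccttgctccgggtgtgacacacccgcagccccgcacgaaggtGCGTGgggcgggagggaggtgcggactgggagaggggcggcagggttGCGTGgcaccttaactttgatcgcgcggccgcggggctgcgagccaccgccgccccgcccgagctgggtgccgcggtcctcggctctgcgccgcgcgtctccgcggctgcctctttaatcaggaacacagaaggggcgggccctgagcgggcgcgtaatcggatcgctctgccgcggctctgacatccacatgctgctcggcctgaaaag
Plxnc1: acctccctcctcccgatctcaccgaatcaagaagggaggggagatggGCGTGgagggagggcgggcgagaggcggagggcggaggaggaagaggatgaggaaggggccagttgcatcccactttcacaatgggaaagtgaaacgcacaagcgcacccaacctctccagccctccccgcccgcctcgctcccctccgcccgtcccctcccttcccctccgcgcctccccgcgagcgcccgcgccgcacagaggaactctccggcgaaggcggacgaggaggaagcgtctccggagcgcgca
Plxnd1: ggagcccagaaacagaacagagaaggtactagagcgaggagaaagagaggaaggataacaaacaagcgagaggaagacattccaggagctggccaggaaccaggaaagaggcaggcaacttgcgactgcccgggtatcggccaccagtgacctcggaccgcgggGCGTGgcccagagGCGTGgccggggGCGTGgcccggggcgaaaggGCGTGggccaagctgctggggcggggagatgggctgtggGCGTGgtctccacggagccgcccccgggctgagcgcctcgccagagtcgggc

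The Plxnd1 window held 5 copies of GCGTG, the Nrp2 window 2, and the Nrp1 and Plxnc1 windows 1 each, the copy in Nrp1 being on the opposite strand. At least 5 copies of GCGTG stood in 0.463% of all 32851 windows, and at least 5 HIF cores of either spelling in 1.66%. The cut of 5 was the count of the Plxnd1 window, the highest among the windows of the 10 genes, so these shares test nothing. Neither share was computed for windows as rich in G or C as that of Plxnd1, at 67.0%. At least 1 copy stood in 32.4% of all windows and in 59.2% of windows with at least 60% G or C, and the 4 windows printed above held between 64.0% and 70.7%. RefSeq windows were given for 9 of the 10 genes, 17 windows in all, because several genes have more than 1 start; Plxna1 was not among them. A HIF core of either spelling stood in 47.1% of these 17 windows, whose median share of G or C was 61.7%. It stood in 43.8% of all windows and in 69.2% of those with at least 60% G or C. GCGTG alone stood in 23.5% of the 17 against 32.4% of all. No window of Plxnb2 or Sema4a held a HIF core. The E-box CACGTG, which contains ACGTG, stood in windows of Sema4b and Sema6d, or 11.8% of the 17. It stood in 7.15% of all windows and in 10.8% of those with at least 60% G or C. The core GAGGAA bound by PU.1, the factor that sets up the macrophage lineage, stood in windows of Nrp1, Plxnc1, Plxnd1, Sema4a and Sema4b. That was 41.2% of the 17 windows, against 28.3% of all and 24.2% of those with at least 60% G or C. Sema4a and Sema4b each entered this share with more than 1 window, so its windows are not independent. These matches describe letters in the windows and carry no information on whether a factor binds there.

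Levels of different genes were compared as RPKM, the CPM over all counts of the library divided by the deposited exon length of the gene in kilobases. In control BMDM the level was highest for Plxnb2, at 130 ± 2.90 RPKM (SD, n = 4), followed by Sema4d at 52.2 ± 0.573 and Plxnd1 at 49.9 ± 1.30 RPKM. Plxnc1, Nrp2, Nrp1, Sema4a and Plxna1 formed a middle group between 15.7 and 21.5 RPKM, in which the ranges of Plxnc1 and Nrp2 overlapped and so did those of Nrp1 and Sema4a. Sema4b stood at 1.44 ± 0.177 RPKM and Sema6d, at 0.371 ± 0.0591 RPKM, was the lowest of the 10. The 10 genes held 95.1 ± 0.152% of the summed RPKM of all 31 family genes in control libraries, Plxnb2 alone held 58.7 ± 0.755% of the summed plexin RPKM and Sema4d held 61.1 ± 0.606% of the summed semaphorin RPKM. With So(d18:1) the order of the levels changed in the middle. Plxnd1, at 59.5 ± 2.53 RPKM, then stood above Sema4d, at 49.2 ± 1.90 RPKM, and Sema4a, at 18.7 ± 1.34 RPKM, had a higher mean than Nrp2 and Plxnc1, whose ranges overlapped its own.

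**Figure D1:**
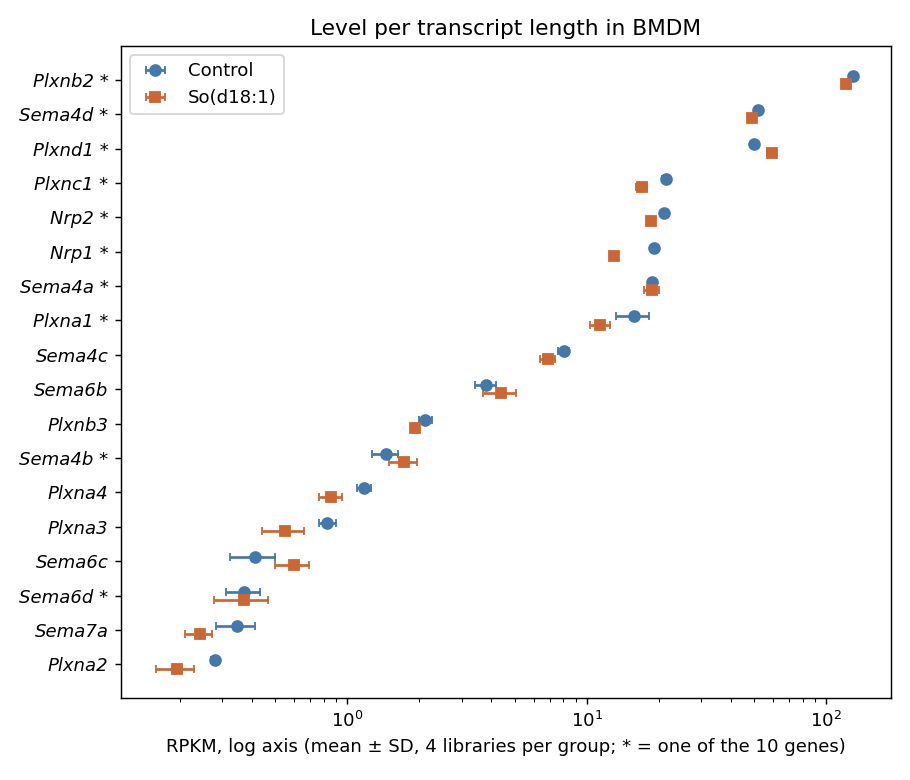
Level per transcript length of the 18 family genes that passed the filter, as mean RPKM with SD over 4 libraries per group on a log axis, where asterisks mark the 10 genes described. Control levels run from 130 RPKM for Plxnb2 down to 0.279 RPKM for Plxna2, and the Nrp1 and Plxnd1 points of the 2 groups are visibly apart.

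Among the ligands, Sema4d (ENSMUSG00000021451, chr13:51685529-51793747, minus strand), also called CD100, is a membrane semaphorin that binds Plexin-B1, Plexin-B2 and CD72 and can be shed from the cell. It measured 398, 406, 404 and 397 CPM in control replicates 1 to 4 and 370, 365, 398 and 380 CPM in So(d18:1) replicates 1 to 4. The groups overlapped through So(d18:1) replicate 3, and the log2 fold change was -0.09 with a standard error (SE) of 0.041. Sema4a (ENSMUSG00000028064, chr3:88435959-88461182, minus strand), a membrane semaphorin of myeloid cells known for its part in T cell priming, measured 99.5, 101, 104 and 101 CPM in control BMDM and 106, 94.8, 108 and 95.0 CPM with So(d18:1). Its So(d18:1) values lay on both sides of all 4 control values, with a log2 fold change of -0.0036 (SE 0.050).

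The 2 remaining ligand genes were expressed at low levels. Sema4b (ENSMUSG00000030539, chr7:80186841-80226527, plus strand) measured between 7.17 and 9.24 CPM in control BMDM and between 8.46 and 11.0 CPM with So(d18:1), so that the groups overlapped, and its log2 fold change was 0.25 (SE 0.12). Sema6d (ENSMUSG00000027200, chr2:124089969-124667770, plus strand), a ligand of Plexin-A1 with a known role in dendritic cells and bone, had between 57 and 128 counts per library. It measured 3.51, 3.30, 4.64 and 4.25 CPM in control BMDM and 3.87, 2.58, 4.27 and 4.97 CPM with So(d18:1). The So(d18:1) values of Sema6d again enclosed the control values, and the SE of its log2 fold change, 0.18, was the largest among the 10 genes.

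**Figure D2:**
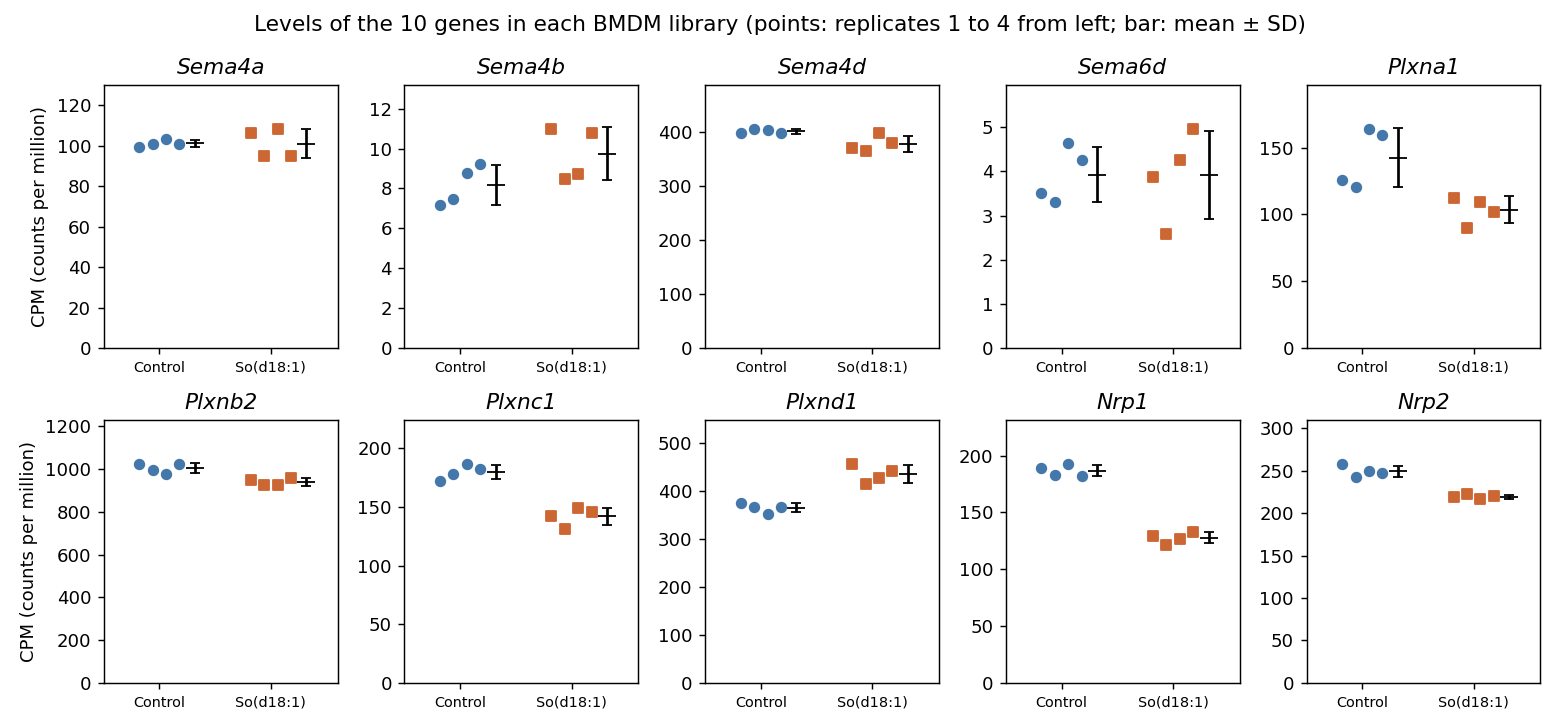
CPM of each of the 10 genes in each library, with every axis starting at 0, points for replicates 1 to 4 from left to right, and the mean with SD beside each group. Nrp1, Nrp2, Plxnc1, Plxna1 and Plxnb2 are lower in all 4 So(d18:1) libraries than in any control library, Plxnd1 is higher in all 4, and the control values of Plxna1 form a lower and a higher pair.

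Among the receptors, Plxnb2 (ENSMUSG00000036606, chr15:89155549-89180788, minus strand), a receptor for class 4 semaphorins, measured 1026, 994, 980 and 1022 CPM in control BMDM and 951, 926, 925 and 960 CPM with So(d18:1). Every So(d18:1) library lay below every control library, but by little, with a log2 fold change of -0.10 (SE 0.040). Plxnd1 (ENSMUSG00000030123, chr6:115954811-115995005, minus strand), best known as the receptor for Sema3e in blood vessels, measured 374, 366, 352 and 366 CPM in control BMDM and 456, 414, 426 and 442 CPM with So(d18:1). It was the 1 receptor of the 4 that stood higher with So(d18:1), by 0.25 on the log2 scale (SE 0.043), and no library of one group reached the range of the other. The count of its ligand gene Sema3e was 0 in all 8 libraries.

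Plxnc1 (ENSMUSG00000074785, chr10:94790866-94944835, minus strand), the receptor for Sema7a, measured 172, 178, 187 and 182 CPM in control BMDM and 142, 131, 149 and 145 CPM with So(d18:1). All So(d18:1) values were below all control values, with a log2 fold change of -0.34 (SE 0.046). Plxna1 (ENSMUSG00000030084, chr6:89316314-89362620, minus strand), the class A plexin that pairs with TREM2 and DAP12, measured 126, 121, 164 and 159 CPM in control BMDM and 112, 89.9, 109 and 102 CPM with So(d18:1). The groups did not overlap and the log2 fold change was -0.46, but the control libraries themselves split into replicates 1 and 2 near the So(d18:1) range and replicates 3 and 4 well above it, and the SE was accordingly 0.12. Gm26811 on the opposite strand covers 10.7% of the exon bases of Plxna1 and had between 15 and 35 counts per library. The strand setting of the counting is not given in the sources used here, so reads from the shared bases cannot be assigned with certainty.

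The co-receptor Nrp1 (ENSMUSG00000025810, chr8:128358604-128503363, plus strand) showed the largest difference of the 10 genes. It measured 189, 183, 193 and 182 CPM in control BMDM and 129, 122, 127 and 133 CPM with So(d18:1). The 2 groups were separated by a wide gap, with a log2 fold change of -0.55 (SE 0.043), or a level lower by 31.6%. Nrp2 (ENSMUSG00000025969, chr1:62703285-62818695, plus strand), which also binds class 3 semaphorins and is decorated with polysialic acid in some myeloid cells, measured 258, 243, 249 and 248 CPM in control BMDM and 219, 222, 216 and 220 CPM with So(d18:1). It was lower in every So(d18:1) library, by less than Nrp1, with a log2 fold change of -0.19 (SE 0.040). The ratio of Nrp2 to Nrp1 in RPKM was 1.10 ± 0.0283 (SD, n = 4) in control and 1.42 ± 0.0607 in So(d18:1) libraries, and its highest control value of 1.13 lay below its lowest So(d18:1) value of 1.37.

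**Figure D3:**
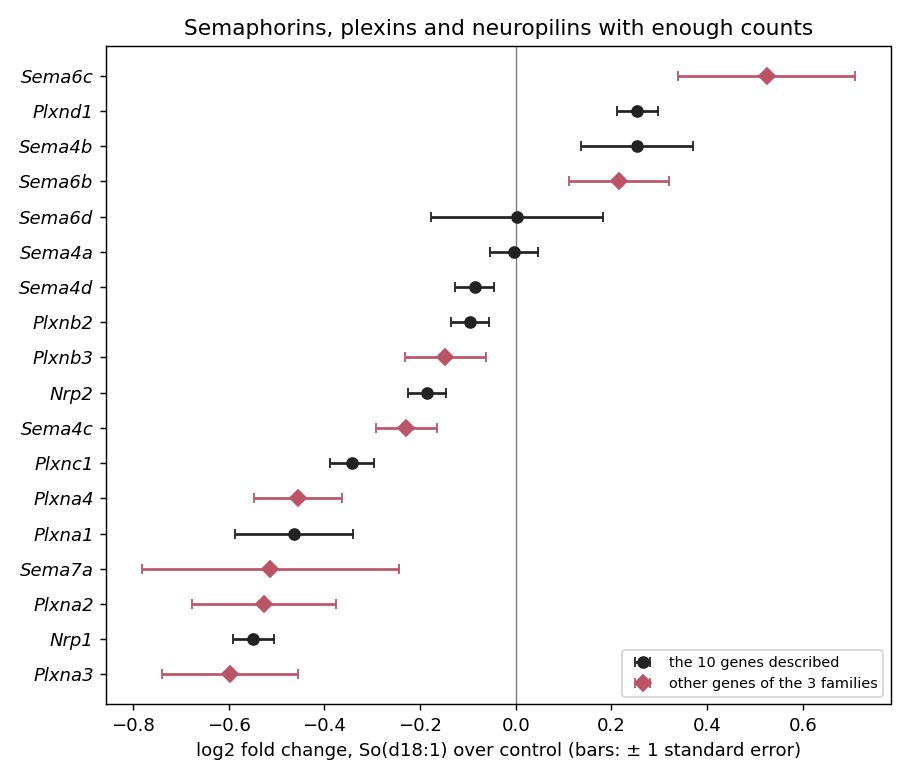
Log2 fold change of So(d18:1) over control, with bars of 1 SE, for the 18 family genes that passed the filter, the 10 described genes as black circles and the 8 others as red diamonds. Plxna1 to Plxna4, Nrp1, Nrp2 and Plxnc1 lie to the left of 0, Plxnd1 to the right, and the Sema4a and Sema6d points sit on 0.

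The other genes of the 3 families show which related receptors and ligands the macrophages expressed. Of 21 such genes, 8 passed the filter and 4 of these fell while none rose by edgeR's quasi-likelihood test with Benjamini-Hochberg adjustment, where 5.07% of all tested genes fell and 3.87% rose. The median log2 fold change of the 8 was -0.34. The 13 genes that did not pass were the class 3 genes Sema3a to Sema3g, Sema4f, Sema4g, Sema5a, Sema5b, Sema6a and Plxnb1, with at most 17 counts in any library. Sema3e and Sema5b had no count in any library, which by the 3-count rule allows up to 0.169 CPM in the smallest library.

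The other class A plexins, which are receptors of class 3 and class 6 semaphorins, fell by amounts close to the difference in Plxna1. Plxna4 (chr6:32144268-32588192) measured 16.6 ± 1.11 CPM in control BMDM and 12.1 ± 1.30 CPM with So(d18:1), a log2 fold change of -0.45 (SE 0.092, adjusted p = 0.0028). Plxna3 (chrX:74329066-74344689) went from 6.51 ± 0.532 to 4.34 ± 0.874 CPM, a log2 fold change of -0.60 (SE 0.14, adjusted p = 0.0105). Plxna2 (chr1:194618218-194816869), with between 54 and 127 counts per library, went from 4.80 ± 0.183 to 3.34 ± 0.608 CPM, a log2 fold change of -0.53 (SE 0.15, adjusted p = 0.0322). In all 3 genes every So(d18:1) library lay below every control library. Leaving out 1 library at a time kept the calls of Plxna3 and Plxna4 in 8 of 8 fits, whereas Plxna2 lost its call in 5 of 8, without control replicate 1, 2 or 4 or So(d18:1) replicate 1 or 2, with an adjusted p of up to 0.121. The summed RPKM of the 4 class A plexins was 18.0 ± 2.38 in control and 13.0 ± 1.30 in So(d18:1) libraries, and 87.1 ± 2.16% of the control sum came from Plxna1.

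Sema4c (chr1:36548639-36558349), a class 4 ligand of Plexin-B2, fell from 36.9 ± 1.98 to 31.6 ± 2.26 CPM, a log2 fold change of -0.23 (SE 0.064, adjusted p = 0.0283). Its groups overlapped, and the call was lost in 5 of 8 fits that left out a library (control replicate 3 or 4, or So(d18:1) replicate 1, 2 or 4), with an adjusted p of up to 0.112. D430040D24Rik on the opposite strand covers 7.27% of its exon bases. The ligand of Plexin-C1, Sema7a, had between 13 and 32 counts per library and measured 1.15 ± 0.213 CPM in control BMDM and 0.796 ± 0.105 CPM with So(d18:1), a log2 fold change of -0.51 (SE 0.27, adjusted p = 0.259) that this depth could not resolve. Sema6c (0.52, SE 0.18, adjusted p = 0.0841), Sema6b (0.22, SE 0.10, adjusted p = 0.221) and Plxnb3 (-0.15, SE 0.085, adjusted p = 0.318) did not pass the test.

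Proteins that bind or share receptors with this system formed a list of 19 genes, of which 11 were tested, 1 rose and 2 fell, with a median log2 fold change of -0.05, where 3.87% of all tested genes rose and 5.07% fell. Itga1 (chr13:114953096-115101964), the integrin α1 chain that with β1 forms a collagen receptor and binds the Sema7a protein, rose from 6.50 ± 0.618 to 17.1 ± 0.962 CPM, a log2 fold change of 1.40 (SE 0.097, adjusted p = 5.16e-09), or 2.63-fold. It measured 6.98, 7.05, 5.78 and 6.19 CPM in control BMDM and 17.2, 16.5, 18.4 and 16.3 CPM with So(d18:1). The groups were far apart, and the partner chain Itgb1 measured 498 ± 10.6 and 504 ± 11.7 CPM, a log2 fold change of 0.02 (SE 0.040) that did not pass the test.

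Trem2 (chr17:48346401-48354147), the lipid-sensing receptor of macrophages that associates with Plexin-A1, fell from 488 ± 19.2 to 427 ± 20.9 CPM, a log2 fold change of -0.20 (SE 0.045, adjusted p = 0.00871), with no overlap between the groups. Its adaptor gene Tyrobp measured 622 ± 13.7 and 599 ± 37.0 CPM, a log2 fold change of -0.05 (SE 0.046, adjusted p = 0.521). The Sema4d receptor gene Cd72 went from 14.9 ± 2.40 to 11.5 ± 1.22 CPM, a log2 fold change of -0.38 (SE 0.11, adjusted p = 0.0363), but its groups overlapped, 41.6% of its exon bases are shared with Tesk1 on the opposite strand, and the call was lost in 6 of 8 fits that left out a library, all but those without control replicate 1 or So(d18:1) replicate 3, with an adjusted p of up to 0.123. The neuropilin ligand gene Vegfa measured 400, 387, 508 and 486 CPM in control BMDM and 440, 364, 419 and 386 CPM with So(d18:1), a log2 fold change of -0.15 (SE 0.10, adjusted p = 0.451). Its higher control values were in replicates 3 and 4, the libraries in which Plxna1 was also higher. The neutrophil markers S100a8, S100a9, Ly6g, Elane, Camp and Ltf were also higher in both of those libraries than in control replicates 1 and 2. S100a9 measured 437, 435, 589 and 522 CPM and Camp 54.5, 53.9, 83.8 and 71.7 CPM in control replicates 1 to 4. Mpo measured 56.5, 43.7, 65.3 and 57.8 CPM, with replicate 4 little above replicate 1. Retnlg, at 11.2, 12.1, 13.3 and 10.5 CPM, was lowest in replicate 4. The part of neutrophil markers in the values of Plxna1 and Vegfa was not tested.

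**Figure D4:**
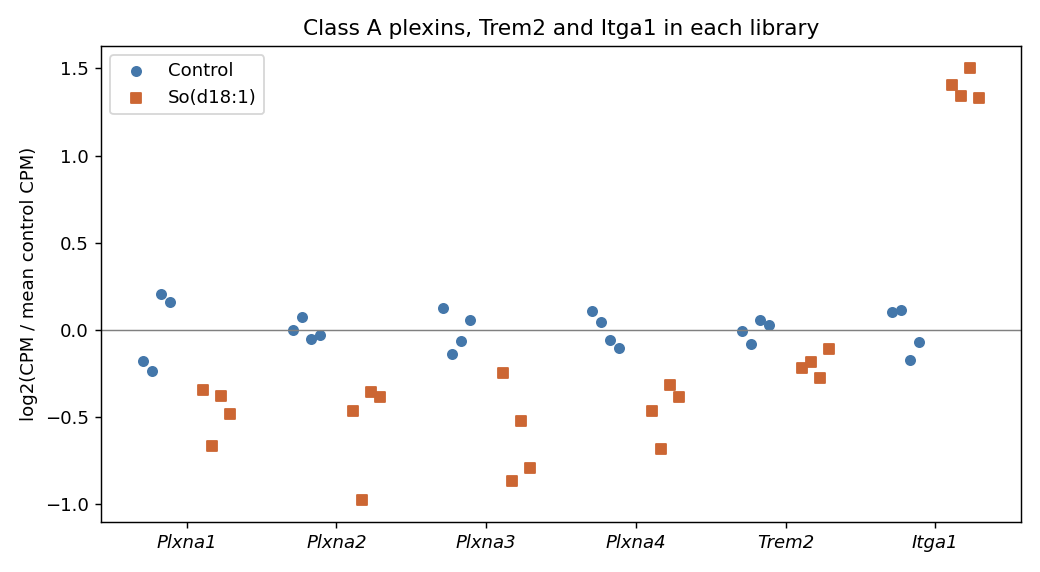
Log2 of the CPM of each library over the mean control CPM for the 4 class A plexins, Trem2 and Itga1, with control libraries as blue circles and So(d18:1) libraries as orange squares. All 4 So(d18:1) points of each class A plexin and of Trem2 lie below the control points, and those of Itga1 lie far above.

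Among 35 genes that carry plexin signals inside the cell (small GTPases, their regulators, and actin and adaptor proteins), 32 were tested, 3 rose and none fell, with a median log2 fold change of 0.02. The 9.38% called here is close to the 8.94% of all tested genes, so the count is not a result about this list, and its members are given as values. Mras, a Ras-family GTPase, had a log2 fold change of -0.59 (SE 0.19, adjusted p = 0.0576) that did not pass. It passed with DESeq2 (adjusted p = 0.0305), without the filter on low counts (0.00297) and with the replicate number as a block (0.00856). It also passed in 2 of the fits that left out a library. Rras, a Ras-family GTPase that is a substrate of the plexin GTPase-activating domain, rose from 34.5 ± 1.08 to 42.0 ± 3.90 CPM, a log2 fold change of 0.29 (SE 0.065, adjusted p = 0.00738). Rnd3, of the Rnd group of GTPases that bind plexins, rose from 13.6 ± 0.243 to 16.9 ± 0.691 CPM, a log2 fold change of 0.31 (SE 0.077, adjusted p = 0.0138). Gipc1, an adaptor that binds the tail of neuropilin-1 and Plexin-D1, rose from 33.6 ± 1.18 to 38.9 ± 2.54 CPM, a log2 fold change of 0.21 (SE 0.060, adjusted p = 0.0305). The groups did not overlap for these 3 genes. Rras and Rnd3 kept their calls in 8 of 8 fits that left out a library, and Gipc1 lost its call in 4, without control replicate 1 or 4 or So(d18:1) replicate 2 or 4, with an adjusted p of up to 0.115.

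Of 7 proteases that cleave semaphorins or neuropilins, 5 were tested and 1 fell, with a median log2 fold change of -0.07, where 5.07% of all tested genes fell. Adam17, a sheddase of membrane proteins, measured 513 ± 8.40 CPM in control BMDM and 467 ± 8.12 CPM with So(d18:1), a log2 fold change of -0.14 (SE 0.039, adjusted p = 0.0343), with no overlap between the groups. This call was lost in 8 of 8 fits that left out a library, with an adjusted p of up to 0.108, and without the filter on low counts, with an adjusted p of 0.0563.

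The genes whose centred log2 CPM followed that of Nrp1 most closely over the 8 libraries, among 11556 genes with a mean log2 CPM of at least 1, were Igf1, Rab3il1 and Pdxk, with root mean square differences of 0.058, 0.062 and 0.065. For Plxnd1 they were Smap2, H2afy and Nfam1, with differences of 0.026, 0.033 and 0.041. Values were centred on the control mean of each gene, so a close match requires a similar log2 fold change. These were -0.51, -0.56 and -0.49 for the genes like Nrp1 and 0.28, 0.27 and 0.29 for those like Plxnd1. Shared regulation was not tested.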

How the data were processed

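RNA selected for poly(A) from 8 mouse BMDM libraries was sequenced. According to the submitters' processing notes and methods, reads were trimmed with Trim Galore 0.6.7, aligned with HISAT2 2.2.1 to mm10 and counted per gene with featureCounts 2.0.1. The handling of strand and of reads with several matches is not given in the sources used here. The authors deposited whole-number counts per Ensembl gene in 1 table, with all 8 libraries and a gene length, and these counts are not normalized. Symbols came from GENCODE M21 (GRCm38), which named 52081 of the 55357 identifiers. The deposited lengths equalled the merged exon lengths of that annotation for all 31 family genes.

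Counts were filtered with filterByExpr, which left 14514 genes, scaled by TMM and tested across all genes with the quasi-likelihood test of edgeR 4.0.16 (limma 3.58.1, R 4.3.3), with robust dispersion and Benjamini-Hochberg adjustment at 0.05, on the 4 control and 4 So(d18:1) libraries without covariates. The scripts were tested on simulated data first. CPM of single tested genes used the library totals of the genes that passed the filter, multiplied by TMM factors of 0.989 to 1.01. RPKM and the marker sums used the full library totals, between 17748397 and 26088609 counts, multiplied by the same factors. Log2 CPM used a prior count of 2, and RPKM the deposited lengths. The SE was obtained as the absolute change over the root of the F statistic. The precision of each value is limited by 4 libraries per group, for which the smallest two-sided exact p is 0.0286.

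The 10 genes and the lists of related genes were chosen with earlier results of these data known. All 10 were named, with at most 8 called genes from each further list, with Sema7a, Trem2, Tyrobp and Vegfa whatever their values, and with the 3 genes most like the members that differed most in each direction. Itgb1, Mras, Sema6b, Sema6c, Plxnb3 the cell type markers given by name and the overlapping genes were named after their values were seen. Promoter windows came from RefSeq, build GRCm38.p6. The labels do not say whether replicate numbers mark pairs, and the main test did not use them. Alternatives were RLE scaling, library size alone, no filter, a replicate block, DESeq2 1.42.0, the study's threshold and leaving out each library. Python 3.11.15 and matplotlib 3.10.9 were used for sequences and figures.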

Additional observations from a re-analysis of the deposited data

How the results depend on the processing

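RLE scaling gave 1290, library size alone 1289 and DESeq2 1495 called genes against 1298. Each called the 11 genes named as risen or fallen in the other family, partner, signalling and protease lists, to which DESeq2 added Mras, lower. The cell type markers were not part of this comparison. The study's threshold gave 564 called genes, 1 of the other family genes, 1 partner, 0 proteases and 2 signalling genes, Rhod (0.77) and Mras (-0.59), neither of them among the 3 named as risen. Without the filter on low counts, 1723 genes were called, with 6 signalling genes and 0 proteases. Leaving out each library in turn gave 815 to 1370 called genes, the lowest without So(d18:1) replicate 2, with 2 to 4 of the other family genes, 2 to 3 partners, 2 to 5 signalling genes and 0 proteases. The fits with 2 of the other family genes left out control replicate 4 or So(d18:1) replicate 1 or 2, and the fit with 5 signalling genes left out control replicate 2. The median log2 fold change of the 10 genes then lay between -0.13 and -0.078, the former without So(d18:1) replicate 4. The near-zero log2 fold changes changed sign in 3 of 8 such fits for Sema4a (-0.04 to 0.03) and in 4 of 8 for Sema6d (-0.15 to 0.16).

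With the replicate number as a block, 1784 genes were called, of which 1296 were shared, with 6 signalling genes and 2 proteases. The deviations of same-numbered libraries correlated at -0.0035 to 0.10 and 1 of 4 control libraries correlated best with its own number. The numbers were therefore not taken to pair the samples in the main test, although these values cannot settle whether pairs existed. The cause of these shifts was not tested. Low counts limit Sema6d, Sema7a and Plxna2.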
